A study of Arabidopsis thaliana with 6 samples.

Results

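Plants attach sugars and glutathione to small molecules to store, transport or detoxify them. The UGT genes encode UDP-dependent glycosyltransferases, which move a sugar from a UDP-sugar to hormones, phenolics, sterols or foreign compounds. The GST genes encode glutathione transferases, which join the tripeptide glutathione to reactive compounds, or bind or reduce them. Both families are large in Arabidopsis, many members lie side by side in tandem arrays, and several tau class GST and group UGT73 genes are known to be induced by oxidative stress and xenobiotics. Abscisic acid (ABA), the hormone supplied to all plants here, is itself inactivated in part by glucosylation through UGT71 enzymes.

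The genes were taken from the probe-to-gene table of the array by symbol. A probe set counted when the table gave it exactly 1 gene and the symbol began with UGT and a digit, or with GSTU, GSTF, GSTL, GSTZ or GSTT, with or without a leading AT. UGT78D1 was left out. This gave 60 probe sets of 22746, for 60 different genes, of which 46 were UGT and 14 GST. The GST genes comprised 11 of the tau class (GSTU), 2 of the phi class (GSTF) and 1 of the lambda class (GSTL), and 0 of the zeta and theta classes. These counts are not the array's coverage of the families, because 8730 probe sets have no gene in the table used here and 503 have several. Another 3 probe sets list a family member together with other genes and were not used here, UGT73B3 among them. All 60 matched the RefSeq gene table by gene ID.

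Total RNA of entire Arabidopsis seedlings, 15 days old and of the Col-0 ecotype, had been hybridised to Affymetrix arrays, with 3 arrays of the gapcp1gapcp2 double mutant and 3 of wild type. The mutant carries lesions in GAPCP1 and GAPCP2, genes for plastidial glyceraldehyde-3-phosphate dehydrogenases. The sources used here do not give its alleles or the number of plants per set. Both genotypes had received 0.75 µM ABA for 8 days, so there is no untreated group and the response to ABA was not compared. The arrays are titled biological replicates 1 to 3 of each genotype, and nothing else says that they came from separate cultures.

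Values are probe-set intensities in arbitrary units on a linear scale. Array medians ran from 105.8 to 113.0, and between 395 and 785 values per array were below 0. Of the listed shoot markers 3 of 12 were measured, of root markers 4 of 9, of guard cell markers 3 of 4 and of seed or embryo markers 0 of 13. Neither GAPCP1 nor GAPCP2 has a probe set named in the table used here, so the targeted genes were not analysed here and gave no check of the genotype labels. With 3 arrays a genotype, precision is limited throughout.

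Of the 60 genes, 40 lay above the filter on low values, which leaves out the lowest 30% of all probe sets by mean level, and 20 lay below it. The 40 were 29 UGT and 11 GST genes. Mean intensities over the 6 arrays ran from 46.7 to 1727 for the tested UGT genes and from 57.2 to 2594 for the tested GST genes. By family, the tested members spanned 51.1 to 426 in UGT71 (6 genes), 69.2 to 455 in UGT72 (3 genes), 56.7 to 243 in UGT73 (4 genes), 425 to 615 in UGT74 (2 genes), 143 to 194 in UGT76 (4 genes), 81.7 to 242 in UGT84 (2 genes), 46.7 to 409 in UGT85 (4 genes) and 97.5 to 1950.1 in GST tau (9 genes). UGT78D2, UGT80B1, UGT87A2, UGT88A1, GSTF4 and GSTL3 were the sole tested members of their families. A probe set's intensity also depends on its probes, so these ranges describe the signal and do not order the genes by transcript number. In bulk seedlings fewer cells of a type and less RNA per cell cannot be told apart.

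The 20 genes below the filter had mean intensities from -9.64 to 37.8, and 12 of their 120 values were below 0, in 5 genes. UGT84A1, a hydroxycinnamate glucosyltransferase gene, had all 6 values below 0, at -15.4, -13.1 and -1.14 in mutant 1, 2 and 3 and -13.1, -14.4 and -0.67 in wild type 1, 2 and 3. UGT71B6, whose product glucosylates ABA, had 16.9, 22.3 and 15.8 in the mutant, against 17.0, 28.9 and 10.3 in wild type. These arrays therefore gave no usable signal for UGT84A1 and a dim one for UGT71B6. UGT74F1 (salicylic acid), UGT84B1 (indole-3-acetic acid), UGT72E3 (monolignols), UGT73C1 (cytokinins and xenobiotics), UGT76E12 and UGT78D3 (flavonols) and UGT71B8 were also below the filter. No difference was tested for any of the 20.

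The comparison asks whether any of these genes differs in the double mutant from wild type under ABA. None of the 40 passed the test. With limma fitted across all 15922 probe sets, 0 of 40 were higher in the mutant and 0 of 40 lower past the adjusted p threshold of 0.05, as were 0.0% and 0.0% of all probe sets, and the smallest adjusted p of a family member was 1.00. At an unadjusted p under 0.05 there were 0 of 40, against 1.7% of all probe sets. Without any difference a share of 0.05 would arise on average, so small p-values were scarce over all probe sets. The cause of this was not tested. Differences are given as log2 of mutant over wild type, on the log2(intensity + 16) scale, which understates changes of dim genes. They ran from -0.39 to 0.35, with 18 above 0 and 22 below, a median of -0.015 and a median of -0.0032 over all probe sets. Above 0 were 45.0% of the 40 genes and 48.7% of all probe sets. In 36 of the 40 the size was under 0.2. The 95% interval lay within -1 to 1 on this scale for 37 of the 40, and for 97.5% of all probe sets. In dim genes an interval within these limits can still hold a 2-fold change in intensity.

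**Figure D1:**
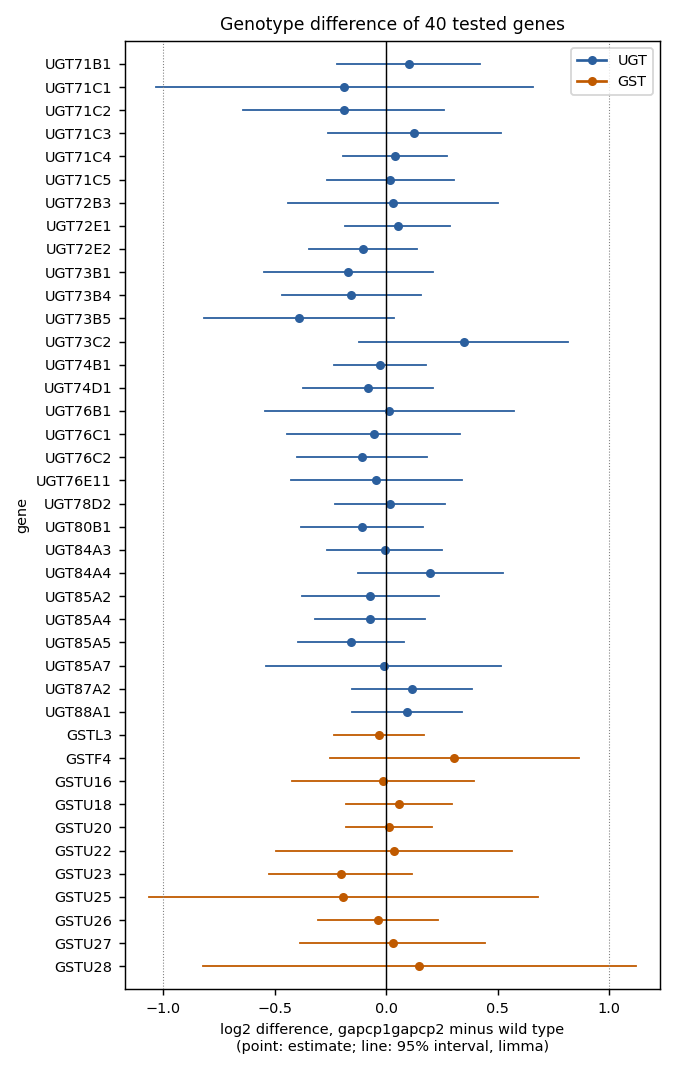
Log2 difference of the gapcp1gapcp2 mutant minus wild type (horizontal axis, log2(intensity + 16) scale) for the 40 tested genes (vertical axis, UGT in blue above and GST in orange below). Points are limma estimates and lines their 95% intervals from 3 arrays per genotype. All intervals include 0, and those of GSTU25, GSTU28 and UGT71C1 reach past -1 or 1.

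Among UGT genes for hormones, UGT71C5, a main ABA glucosyltransferase (AT1G07240), had intensities of 268, 293 and 254 in mutant 1, 2 and 3, against 271, 230.3 and 307 in wild type 1, 2 and 3. The genotypes overlapped, and the log2 difference was 0.017 ± 0.13 (SE) with a 95% interval of -0.27 to 0.30. The cytokinin N-glucosyltransferase genes were both measured. UGT76C1 had 195, 137 and 169.5 in the mutant and 177, 210.1 and 139 in wild type, a log2 difference of -0.058 ± 0.17 (SE). UGT76C2 had 178, 155 and 177 in the mutant and 176, 165 and 216 in wild type, a log2 difference of -0.11 ± 0.13 (SE). In both, wild type arrays held the highest value and the groups overlapped. UGT74D1, for conjugates of auxins and their catabolites, had 458, 367 and 412 in the mutant and 378, 489.6 and 447 in wild type, a log2 difference of -0.084 ± 0.13 (SE).

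UGT76B1, which glucosylates isoleucic acid and salicylic acid in immunity, had near-equal genotype averages and widely spread arrays. Its intensities were 143, 247 and 190.5 in mutant 1, 2 and 3, against 265, 134 and 184 in wild type 1, 2 and 3. The genotype averages were 194 ± 52.0 in the mutant and 194 ± 66.2 in wild type (SD, n = 3 each), while the highest array was 1.98 times the lowest. The log2 difference was 0.013 ± 0.25 (SE), with a 95% interval of -0.55 to 0.57.

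UGT72E1 and UGT72E2 encode glucosyltransferases of lignin precursors. UGT72E1 had 501, 438 and 450.0 in the mutant, against 437, 484 and 418 in wild type. UGT72E2 had 328, 362 and 329 in the mutant, against 401, 369 and 333 in wild type. Their log2 differences were 0.051 ± 0.10 and -0.11 ± 0.11 (SE), with overlapping groups. The sinapate and hydroxycinnamate glucosyltransferase genes UGT84A3 and UGT84A4 had -0.0066 ± 0.11 and 0.20 ± 0.14 (SE). UGT84A4 had 84.1, 81.2 and 99.9 in the mutant and 82.0, 68.3 and 74.5 in wild type, so that only mutant 2 lay below the highest wild type array.

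The flavonoid 3-O-glucosyltransferase gene UGT78D2 had intensities of 223, 196 and 206 in the mutant and 206, 223 and 189.7 in wild type, with a log2 difference of 0.016 ± 0.11 (SE). UGT88A1, which acts on flavonols in vitro, had 2027, 1559 and 1773 in the mutant and 1541, 1732 and 1731 in wild type, a log2 difference of 0.092 ± 0.11 (SE). Mutant 1 was the highest array for UGT88A1, while in UGT78D2 mutant 1 and wild type 2 were near equal. UGT76E11, which also glucosylates flavonoids, had -0.045 ± 0.17 (SE).

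UGT74B1, the S-glucosyltransferase of glucosinolate synthesis, was the steadiest of the 40 genes by its range over arrays. It had 575, 640.2 and 610.5 in mutant 1, 2 and 3, against 621, 599.9 and 643 in wild type 1, 2 and 3, and a log2 difference of -0.029 ± 0.091 (SE) with a 95% interval of -0.24 to 0.18. The sterol glucosyltransferase gene UGT80B1 had 266, 209 and 252 in the mutant and 248, 254 and 286 in wild type, a log2 difference of -0.11 ± 0.12 (SE). UGT87A2, known for an effect on flowering time, had 269.6, 266 and 287 in the mutant and 278, 216 and 266 in wild type, a log2 difference of 0.12 ± 0.12 (SE).

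The UGT73 genes, several of which are stress- and xenobiotic-responsive, held the largest fitted differences in both directions. UGT73B5 (AT2G15480), induced in defence and redox stress, had 48.8, 81.9 and 79.5 in mutant 1, 2 and 3, against 102, 85.1 and 98.7 in wild type 1, 2 and 3. All mutant arrays lay below all wild type arrays, by a narrow margin between mutant 2 and wild type 2. The log2 difference was -0.39 ± 0.19 (SE), with a 95% interval of -0.82 to 0.035 and a limma adjusted p of 1.00, and it was -0.20 without mutant 1. Such separation without overlap occurred in 2 of the 40 genes, both lower in the mutant, against 6.29% of all probe sets in either direction, 3.13% with the mutant lower and 3.16% with the mutant higher. The other was UGT85A5 (AT1G22370), with 189.8, 191 and 170.2 in the mutant and 204, 198 and 219.8 in wild type, a log2 difference of -0.16 ± 0.10 (SE). A share of 2 in 40 is near that background.

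UGT73C2, a neighbour of the xenobiotic-conjugating UGT73C1, had 61.4, 54.9 and 79.4 in the mutant, against 58.6, 35.3 and 50.7 in wild type. Its log2 difference was 0.35 ± 0.21 (SE), with a 95% interval of -0.12 to 0.81, and 0.19 without wild type 2. Mutant 2 lay below wild type 1, so the groups overlapped. UGT73B1 had 179.5, 229 and 278 in the mutant and 299.8, 226 and 246 in wild type, a log2 difference of -0.17 ± 0.17 (SE). Of the 4 tested UGT73 genes 1 was fitted above 0 and 3 below, with a median of -0.16, and in UGT85 0 were above and 4 below, with a median of -0.072. Over all probe sets 48.7% were above 0. Of the tested UGT85 genes 3 lie close together in the gene order. Counts of so few genes give no direction for a family.

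In the tau class of GST, 5 of 9 genes were fitted above 0 and 4 below, with a median log2 difference of 0.011. GSTU20 (AT1G78370), which binds the jasmonate-conjugating enzyme FIN219/JAR1, had 1907, 1869 and 2096 in mutant 1, 2 and 3, against 2076, 1911 and 1841 in wild type 1, 2 and 3. The log2 difference was 0.011 ± 0.085 (SE) with a 95% interval of -0.18 to 0.20, the narrowest interval of the 40. GSTU23 had 102, 93.7 and 118 in the mutant and 123, 140.3 and 106 in wild type, a log2 difference of -0.21 ± 0.14 (SE), and mutant 3 lay above wild type 3. GSTU27 had 459.7, 403 and 464 in the mutant and 374, 599 and 359 in wild type, where wild type 2 stood above the other arrays, and a log2 difference of 0.028 ± 0.18 (SE).

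Outside the tau class, GSTF4 of the phi class had 47.6, 59.8 and 87.7 in the mutant and 62.8, 33.6 and 51.9 in wild type. Its log2 difference was 0.30 ± 0.25 (SE), with a 95% interval of -0.25 to 0.86, and leaving out 1 array gave values from 0.11, without mutant 3, to 0.47, without mutant 1. GSTL3 of the lambda class, whose members carry a cysteine in the active site and act as thiol transferases, had 2584, 2377 and 2735 in the mutant and 2483, 2858 and 2529.5 in wild type. Its log2 difference was -0.032 ± 0.088 (SE), with a 95% interval of -0.23 to 0.17. The groups overlapped in both genes.

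**Figure D2:**
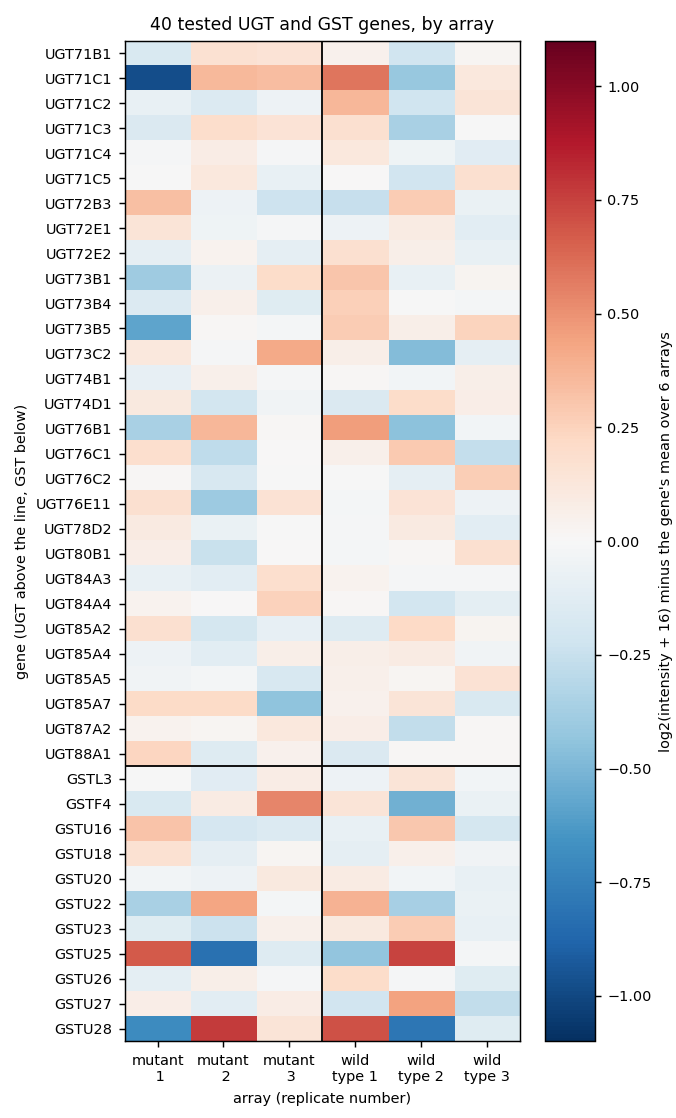
Level of each of the 40 tested genes (vertical axis, UGT above the line and GST below) on each of the 6 arrays (horizontal axis, mutant arrays left and wild type arrays right), coloured by log2(intensity + 16) minus the gene's mean over the 6 arrays. GSTU25, GSTU28, UGT71C1, UGT76B1 and GSTU22 differ by up to 1.56 between arrays on this scale, with high and low arrays in both genotypes.

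Most of the spread of these genes lay between arrays of one genotype. With 3 arrays per genotype this is likely without any genotype difference too, so it is no result by itself. Of the summed squared deviations of the 40 genes, 8.91% lay between the genotypes, against 13.3% over all tested probe sets. Such sums weigh the genes with the widest ranges most. The share was 12.8% for UGT and 4.77% for GST genes. The distance from the lowest to the highest of the 6 arrays had a median of 0.43 on the log2 scale for the 40 genes and 0.43 for all probe sets, with 0.42 in UGT and 0.51 in GST genes. It ran from 0.16 in UGT74B1 to 1.56 in GSTU28. A range of at least 1 on this scale occurred in 4 of the 40 genes, against 6.53% of all probe sets, and in 3 of 11 GST and 1 of 29 UGT genes. These 4 were GSTU28, UGT71C1, GSTU25 and GSTF4. On this scale a range of 1 is more than a 2-fold distance in intensity. UGT73C2 and UGT73B5 had ranges under 1, while their highest arrays were 2.25 and 2.09 times the lowest in intensity. Dimmer genes varied more, with a Spearman correlation of -0.58 between mean level and range across the 40 genes and -0.46 across all probe sets, which share the 6 arrays.

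**Figure D3:**
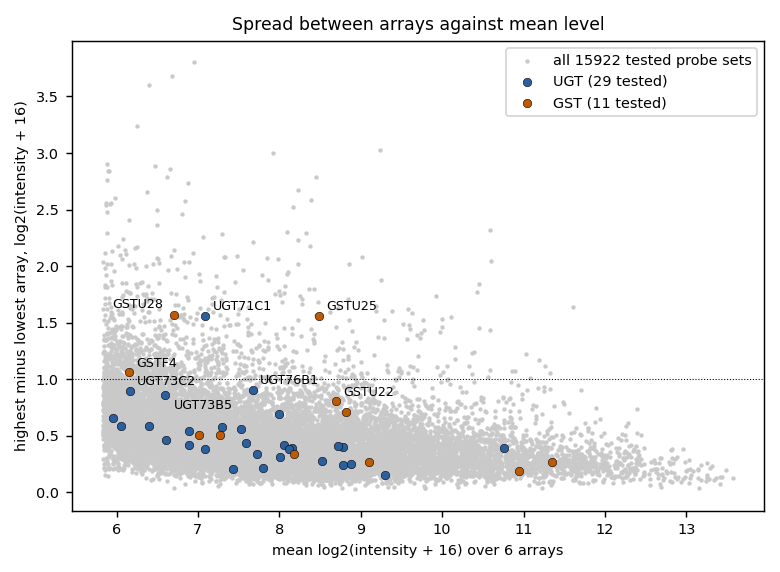
Distance between the highest and the lowest of the 6 arrays (vertical axis, log2(intensity + 16)) against the mean level over the arrays (horizontal axis, same scale), with all 15922 tested probe sets in grey, UGT genes in blue and GST genes in orange. GSTU28, UGT71C1, GSTU25 and GSTF4 lie above the dotted line at 1, and GSTU25 does so at a higher mean level than the other named genes above it.

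GSTU25 (AT1G17180), a tau class enzyme known to be strongly induced by xenobiotics and to act on trinitrotoluene, had its high and low arrays in both genotypes. Its intensities were 558, 188 and 310.1 in mutant 1, 2 and 3, against 251, 587 and 339 in wild type 1, 2 and 3. Mutant 1 and wild type 2 were the highest, mutant 2 and wild type 1 the lowest, and the highest array was 3.11 times the lowest. The genotype averages were 352 ± 188 in the mutant and 392 ± 174 in wild type (SD, n = 3 each). The log2 difference of -0.19 ± 0.38 (SE) had a 95% interval of -1.06 to 0.68, and it was -0.58 without mutant 1 and 0.17 without mutant 2. The interval of GSTU25 thus spans a 2-fold lower level in the mutant as well as an equal one.

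GSTU28 (AT1G53680) ran the opposite way. It had 48.3, 162 and 98.9 in mutant 1, 2 and 3, against 153, 44.03 and 79.0 in wild type 1, 2 and 3. Mutant 2 and wild type 1 were the highest and the highest array was 3.67 times the lowest, while the genotypes overlapped throughout. The log2 difference was 0.15 ± 0.43 (SE), with a 95% interval of -0.82 to 1.12, and it was -0.20 without mutant 2 and 0.53 without mutant 1.

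GSTU22 had 306, 544 and 391 in mutant 1, 2 and 3, against 525, 305 and 378 in wild type 1, 2 and 3, the same order of the outer arrays as GSTU28. Its log2 difference was 0.036 ± 0.23 (SE). UGT71C1, a glucosyltransferase of phenolic compounds, had 53.4, 159 and 156 in mutant 1, 2 and 3, against 189, 86.2 and 131 in wild type 1, 2 and 3. Mutant 1 stood well below the other mutant arrays in UGT71C1, and the log2 difference of -0.19 ± 0.37 (SE) became 0.25 without it. UGT76B1 also had mutant 2 and wild type 1 highest and mutant 1 and wild type 2 lowest.

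**Figure D4:**
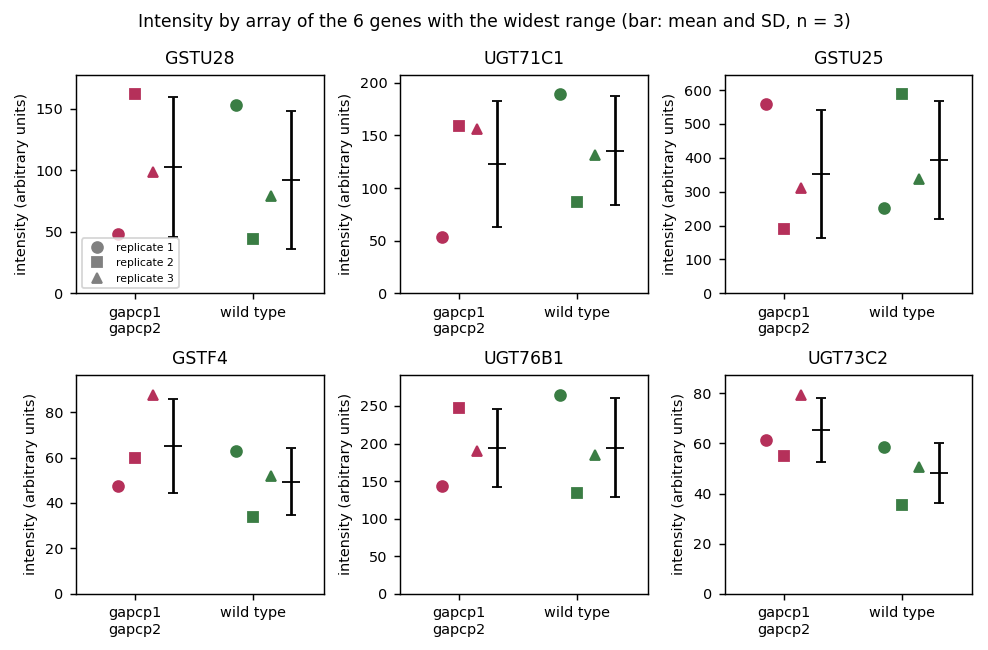
Intensity (vertical axes, arbitrary units, from 0) on each array of the 6 genes with the widest range over the arrays, with gapcp1gapcp2 left in red and wild type right in green. Symbols give the replicate number and black bars the mean and SD of 3 arrays. In GSTU25 replicate 1 of the mutant and replicate 2 of wild type are highest, and in GSTU28 and UGT76B1 replicate 2 of the mutant and replicate 1 of wild type are.

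Over the 40 genes, 4 had mutant 1 and wild type 2 as the highest arrays with mutant 2 and wild type 1 as the lowest, namely GSTU25, GSTU18, UGT74D1 and UGT85A2. The share over all probe sets was 5.67%. Another 5 had the reverse order, namely GSTU28, GSTU22, UGT71C1, UGT71C3 and UGT76B1, where the share over all probe sets was 5.9%. This order of arrays was singled out after the values had been seen, and it crosses the genotypes. The root markers PYK10, NAI2, EXPA7 and EXPA18 shared the second order in part. In 4 of these 4 mutant 1 was the lowest and mutant 2 the highest mutant array and wild type 1 the highest wild type array, and in 3 of 4 wild type 2 was the lowest wild type array. This order within each genotype is looser than the order over 6 arrays, and its share over all probe sets was not computed. Across all tested probe sets mutant 1 varied together with wild type 2 (correlation 0.60) and mutant 2 with wild type 1 (0.39). The 4 of 4 is therefore no result about root genes. The summed intensity of the root markers was 5004 to 7123 in the mutant and 5440 to 7548 in wild type, and 0 of them had a value at or below 0. Most of this sum was PYK10, with 4073 in mutant 1 and 6109 in wild type 1, so it mainly shows that gene. The summed shoot markers were 21051 to 22619 in the mutant and 21023 to 23164 in wild type. The summed guard cell markers were 195, 149 and 183 in mutant 1, 2 and 3, against 156, 200 and 198 in wild type 1, 2 and 3. Within each genotype this order is the reverse of the root one. Of these 3 markers 1, FMA, lay above the filter. It had 95.4, 99.0 and 99.1 in mutant 1, 2 and 3 and did not share the mutant part of that order. The part that root, shoot or guard cell RNA had in these values was not tested.

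Tested neighbours of GSTU25, GSTU22 and UGT71C1 had narrower ranges than these genes. GSTU25, GSTU22 and UGT71C1 were among the tested genes with the widest ranges and were taken up for that. Narrower ranges in their neighbours were therefore likely from the choice alone and are no result by themselves. By the gene order of the RefSeq table, 36 of the 60 genes lay in 15 groups of members at most 2 genes apart, and in 8 groups at least 2 genes were tested. GSTU26, the tested neighbour of GSTU25, had 252, 286 and 271 in mutant 1, 2 and 3, against 317, 270.5 and 247 in wild type 1, 2 and 3, and its highest array was 1.28 times the lowest, against 3.11 times for GSTU25. In the group of GSTU20, GSTU21, GSTU22 and GSTU23, the distance from the lowest to the highest array was 0.19 on the log2 scale in GSTU20, 0.51 in GSTU23 and 0.80 in GSTU22, and GSTU21 was not tested. UGT71C2, beside UGT71C1, had 46.9, 43.8 and 47.9 in the mutant and 69.4, 40.9 and 57.5 in wild type. Its mutant arrays were alike while those of UGT71C1 were not. Within wild type, both UGT71C1 and UGT71C2 had wild type 1 highest and wild type 2 lowest. No difference between neighbours was tested.

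Of 73 other listed genes of glutathione and glucoside metabolism 3 had a probe set named in the table used here, and 0 of these 3 passed the test. GR1, for cytosolic glutathione reductase, had a log2 difference of -0.011 ± 0.087 (SE), and GR, for the plastid and mitochondrial enzyme, 0.062 ± 0.11 (SE). The beta-glucosidase gene BGLU33 had -0.081 ± 0.18 (SE). GR had 1550, 1235 and 1322 in mutant 1, 2 and 3 and 1222, 1432 and 1270 in wild type 1, 2 and 3, with mutant 1 and wild type 2 highest. The 10 tested family members without values of their own here had log2 differences from -0.16 to 0.13 and ranges over the arrays from 0.21 to 0.66.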

How the data were processed

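The values the authors deposited are linear intensities per probe set and array, made with the Affymetrix software GCOS, per the submitters' processing notes. The sources used here state neither summarisation nor scaling. Values below 0 show that something was subtracted. Genes were named from the platform's probe table, and locus names and gene order came from the RefSeq table of assembly TAIR10.1. No coordinates are printed, because the files name no build. Intensities below 0 were raised to 0, transformed as log2(value + 16), and probe sets in the lowest 30% by mean log2 value were left out. limma 3.58.1 in R 4.3.3 (lmFit, eBayes with trend, two-sided, Benjamini-Hochberg, threshold 0.05) was fitted over all 6 arrays and was checked on simulated data. Genes, lists and tests were chosen with earlier results of these data known. Genes given values were those past the threshold, the largest difference per family (2 in families with over 5 tested genes), the 10 widest ranges, up to 10 without overlap, and a list of genes with known substrates. UGT71C3, GSTU18, UGT85A2 and GSTU21 were named after their values were seen. Arrays of the same number did not vary together around their genotype means (correlations -0.59, -0.49 and -0.13 for replicates 1, 2 and 3), while mutant 1 with wild type 2 gave 0.60 and mutant 2 with wild type 1 gave 0.39, and no pairing was used. Alternatives were other filters, pseudocounts, a generalized log2, normalizations, eBayes settings, array weights, a replicate block and leaving out each array. Figures used matplotlib 3.10.9.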

Additional observations from a re-analysis of the deposited data

How the results depend on the processing

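Under all 18 alternatives limma placed 0 probe sets past the threshold, 0 of them UGT or GST genes, with a smallest adjusted p of 0.999. The count of probe sets at an unadjusted p under 0.05 was 271 of 15922 (1.70%). It ranged from 115 of 11373 (1.01%), with the lowest 50% left out, to 619 of 22746 (2.72%), without the filter. Of them 0 or 1 were family members, the 1 being UGT71B8 without the filter and UGT73B5 without mutant 2. The replicate block gave 136 such probe sets of 15922, the lowest share at 0.85%, with 0 past the threshold, and changed no call. With 1 array left out, the sign of the fitted difference turned in 35 of 180 values, in 17 of 30 genes, whose log2 differences then ranged over GSTL3 (-0.079 to 0.031), GSTU20 (-0.039 to 0.059), GSTU22 (-0.17 to 0.24), GSTU25 (-0.58 to 0.17), GSTU26 (-0.12 to 0.056), GSTU27 (-0.10 to 0.26), GSTU28 (-0.21 to 0.54), UGT71C1 (-0.44 to 0.25), UGT71C5 (-0.084 to 0.11), UGT72E1 (-0.0055 to 0.11), UGT74B1 (-0.066 to 0.0098), UGT76B1 (-0.21 to 0.25), UGT76C1 (-0.20 to 0.072), UGT76E11 (-0.14 to 0.14), UGT78D2 (-0.037 to 0.070), UGT84A3 (-0.10 to 0.052), UGT88A1 (-0.0023 to 0.19). It did not turn in GSTF4 (0.11 to 0.47), GSTU23 (-0.30 to -0.12), UGT71C2 (-0.35 to -0.057), UGT72E2 (-0.17 to -0.043), UGT73B1 (-0.31 to -0.018), UGT73B5 (-0.50 to -0.20), UGT73C2 (0.19 to 0.46), UGT74D1 (-0.18 to -0.0032), UGT76C2 (-0.19 to -0.0037), UGT80B1 (-0.18 to -0.015), UGT84A4 (0.12 to 0.25), UGT85A5 (-0.19 to -0.11), UGT87A2 (0.012 to 0.18). Under the other 12 alternatives it turned in 8 of 354 values, namely GSTU20 with quantile normalization (-0.0011), UGT84A3 with quantile normalization (0.0045), 75th percentile centring (0.0039) and array weights (0.043), and with array weights GSTU22 (-0.016), UGT71C5 (-0.0074), UGT76B1 (-0.022) and UGT76E11 (0.026). None of these genes passed under any alternative, and the cause was not tested. Dim signals limit the 20 genes below the filter.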

Other observations

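GSTU21, a tau class gene between GSTU20 and GSTU22 and below the filter, was singled out after its values were seen. It had an intensity of 105 in mutant 1, against 1.79 and 15.1 in mutant 2 and 3 and 12.8, 12.2 and 7.38 in wild type 1, 2 and 3. UGT71B8, also below the filter, had 20.7, 50.4 and 44.1 in mutant 1, 2 and 3, against 28.5, 5.51 and 9.67 in wild type 1, 2 and 3. For UGT71B8 mutant 1 lay below wild type 1, so its groups overlapped. Without the filter its log2 difference was 0.86 ± 0.35 (SE), with a limma adjusted p of 1.00, and it was 1 of 60 genes at an unadjusted p under 0.05, against 2.72% of all 22746 probe sets without the filter.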
